A study of Mus musculus with 3 samples.

Results

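Glycolysis breaks glucose down to pyruvate in the cytosol, and its genes are described here as a module of 33 genes in single regulatory T cells (Tregs), the Foxp3-dependent CD4 T cells that restrain immune responses. The module was chosen by gene name, with earlier results of these data known. It holds the glycolytic enzymes and their isozymes and the transporters for glucose and lactate. It also holds the enzymes that lead pyruvate into mitochondria or keep it out, and 4 enzymes of the pentose phosphate pathway. All 33 were found among the 27998 genes of each library. Cells with at least 500 UMIs (unique molecular identifiers, 1 per captured transcript) and at most 10% mitochondrial UMIs were used.

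Tregs came from adult back epidermis, adult back dermis and lymph node of C.Cg-Foxp3tm2Tch/J mice, a reporter strain (Foxp3-EGFP) whose Foxp3-expressing cells fluoresce green. The labels give no treatment, and no number, age in weeks or sex of the animals. Per the labels, the skin layers were parted with thermolysin, dermis was then digested with collagenase and lymph node mashed; the sort gate took cells positive for GFP, CD4, CD3 and CD45. The kept cells numbered 297 in epidermis and 875 in dermis, against 9400 in lymph node, holding 2205131, 4630059 and 32906839 UMIs. There was 1 library per tissue: tissues could not be tested against each other, and the 95% intervals cover counting error only. Both skin libraries used the 3′ v3 kit and lymph node the v2 kit, so tissue and kit cannot be told apart in any comparison with lymph node.

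Other limits of the libraries bear on the results. Among the kept cells, 41 barcodes were found in both skin libraries and 0 were shared with lymph node. In 37 of these pairs 1 copy was at least 10-fold deeper (median 12.7-fold), and a median of 98.9% of the genes in the shallower copy were also seen in the deeper one. The shallower copies held 0.424% of epidermal and 0.949% of dermal UMIs, and the counts of members that differed between whole libraries were the same without them. Results given below without the shared barcodes leave out both copies of each pair. The deeper copy was epidermal in 33 of the 41 pairs and dermal in 8, so those results also lose deep cells, mostly epidermal ones. The mitochondrial limit had removed 17.5% of barcodes for epidermis and 18.8% for dermis, against 0.202% for lymph node. A Foxp3 UMI was seen in 39.7%, 47.0% and 7.17% of the kept cells in epidermis, dermis and lymph node, and the 6 Treg markers summed to 4985, 6655 and 2331 CPM (UMI counts scaled to a library total of 1e6). Immediate early and dissociation genes summed to 4005, 9501 and 469 CPM, and ribosomal protein genes took 25.4%, 19.0% and 36.4% of UMIs; the part of either in the differences from lymph node was not tested.

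In glycolysis, hexokinase traps glucose, phosphofructokinase sets the pace of the upper steps, and phosphoglycerate kinase and pyruvate kinase yield ATP in the lower steps. Lactate dehydrogenase turns pyruvate into lactate, whereas the pyruvate dehydrogenase complex, which Pdk1 restrains, sends it to the mitochondrial citrate cycle. In T cells glycolysis is known to increase on activation and growth through mTOR, Myc and the hypoxia-inducible factor Hif1a, and Tregs are known to rely on it less than other activated CD4 T cells.

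The promoter windows of 4 members are shown because the results below turn on them: Pgk1 and Tpi1 were counted as higher and Pdk1 as lower in both skin libraries than in lymph node, and Hk2 took a larger share of its family. Each window is the 250 bases before the RefSeq start, 5′ to 3′ on the gene's strand, and capitals mark the hypoxia response core searched, ACGTG or GCGTG on either strand, where the E-box CACGTG also holds an ACGTG. Windows are from RefSeq on GRCm38.p6: Pgk1 at chrX:106186850-106187099 on the plus strand, Hk2 at chr6:82774455-82774704 on the minus strand, Tpi1 at chr6:124814159-124814408 on the minus strand and Pdk1 (the first of its 2 starts) at chr2:71872974-71873223 on the plus strand.
Pgk1: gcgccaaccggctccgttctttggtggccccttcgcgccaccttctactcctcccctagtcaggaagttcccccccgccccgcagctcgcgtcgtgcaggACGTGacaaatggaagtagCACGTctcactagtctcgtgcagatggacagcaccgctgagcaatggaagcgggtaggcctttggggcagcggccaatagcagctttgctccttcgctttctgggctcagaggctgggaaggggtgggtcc
Hk2: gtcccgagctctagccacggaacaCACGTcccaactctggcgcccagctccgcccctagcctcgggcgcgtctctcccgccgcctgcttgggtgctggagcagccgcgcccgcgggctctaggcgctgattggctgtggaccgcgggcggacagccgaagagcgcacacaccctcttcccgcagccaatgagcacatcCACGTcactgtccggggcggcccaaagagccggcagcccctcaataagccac
Tpi1: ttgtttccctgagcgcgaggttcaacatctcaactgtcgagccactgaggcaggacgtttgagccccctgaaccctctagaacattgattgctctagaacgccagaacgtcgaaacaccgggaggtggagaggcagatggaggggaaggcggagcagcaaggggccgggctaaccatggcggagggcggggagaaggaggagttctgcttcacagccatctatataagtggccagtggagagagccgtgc
Pdk1: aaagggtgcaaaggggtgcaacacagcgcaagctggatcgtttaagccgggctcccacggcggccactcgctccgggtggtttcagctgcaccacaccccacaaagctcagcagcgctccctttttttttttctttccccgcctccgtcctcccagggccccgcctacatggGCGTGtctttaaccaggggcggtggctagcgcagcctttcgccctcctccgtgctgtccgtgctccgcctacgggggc
The core occurs at 2 places in the Pgk1 window, 150 and 131 bases before the start, at 2 in that of Hk2 and at 1 in that of Pdk1, while the Tpi1 window has none. It was found in 39 of the 49 windows of members (79.6%), against 58.8% of the windows of genes with at least 50 CPM and 38.6% of all 32851 windows. The E-box was found in 10.2% of the members' windows, 9.33% of those of genes with at least 50 CPM and 6.02% of all windows. A match of these letters is no evidence of binding, and Pdk1, which was lower in skin, holds one as well. RefSeq windows were matched for 32 of the 33 members, all but Slc2a3.

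The members together were more abundant in skin than in lymph node Tregs when UMIs were pooled. Their share of UMIs was 0.618% for epidermis (95% interval 0.608 to 0.629) and 0.516% for dermis (0.510 to 0.523), against 0.405% for lymph node (0.403 to 0.407). In the median cell the order of the skin layers was the other way round, with 0.422% for epidermis and 0.447% for dermis, against 0.371% for lymph node. The upper end of the epidermal cells was far out, with a 95th percentile of 1.29%, against 0.962% in dermis and 0.641% in lymph node. Measured against UMIs outside mitochondrial and ribosomal protein genes, the members' share was 0.876% for epidermis and 0.675% for dermis, against 0.661% for lymph node, so that dermis and lymph node were nearly level. Gapdh alone gave 24.2%, 26.6% and 16.5% of the members' UMIs.

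**Figure D1:**
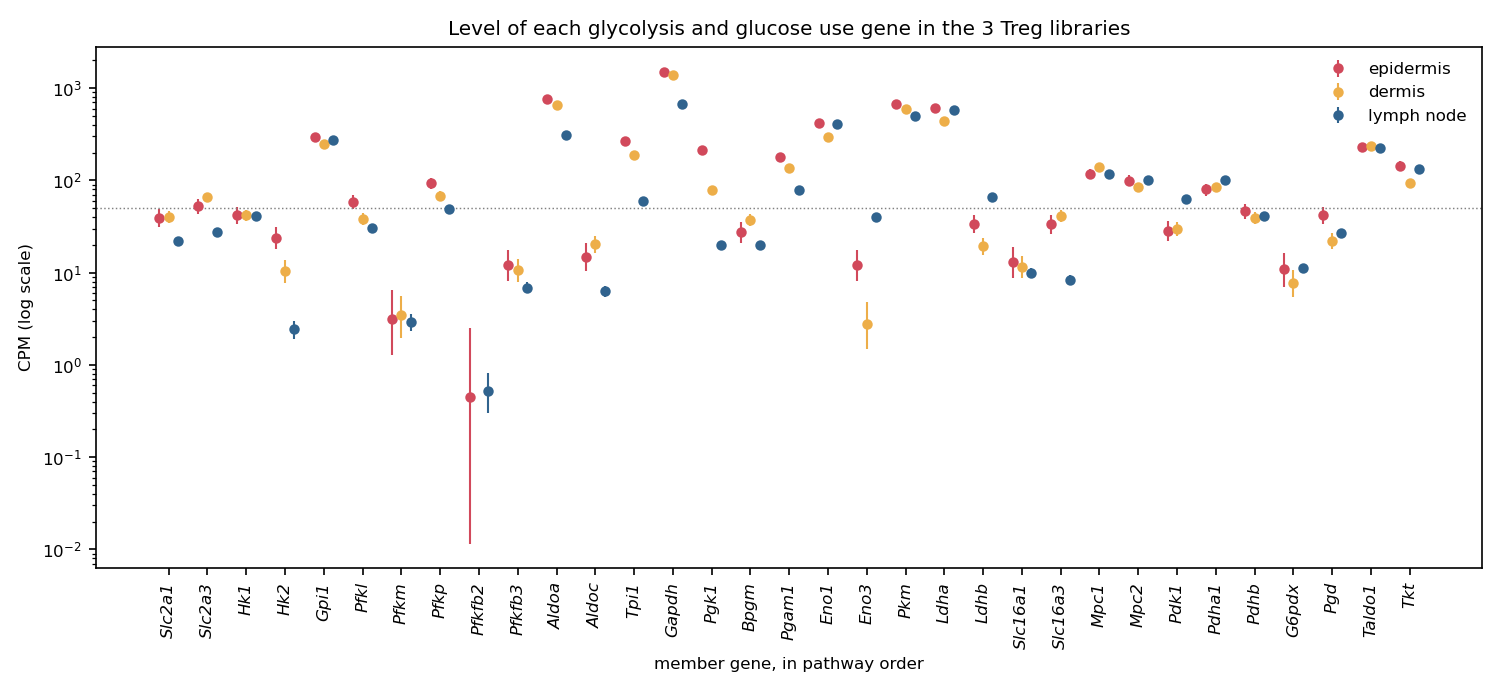
Level of each member in CPM on a log axis, in pathway order, with epidermis in red, dermis in yellow and lymph node in blue; bars are 95% counting intervals and the dotted line marks 50 CPM. Gapdh is the most abundant member in all 3 libraries, at 1497 CPM in epidermis and 1374 CPM in dermis, against 667 CPM in lymph node, and Pgk1 and Hk2 have the same order of libraries.

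A member was counted as higher or lower at a ratio of 2-fold or more with 50 CPM or more in the library where it was more abundant. Between the skin layers, 1 of the 17 members with enough UMIs was higher in epidermis (Pgk1) and 0 were lower, where 2.71% of all 3064 such genes were higher and 4.54% lower, 7.25% in all. For epidermis over lymph node, 5 of 19 members were higher (26.3%), against 18.6% of all 3067 genes, and 1 was lower, against 3.42% (22% of genes either way). For dermis over lymph node, 5 of 18 were higher (27.8%), against 26% of all 3203 genes, and 2 were lower, against 9.55% (35.5% either way). The shares of members counted higher over lymph node were thus close to those of all genes in dermis and somewhat above in epidermis, where 5 genes make up the count. Over the 31 members with at least 10 CPM, the median log2 ratio was 0.23 for epidermis over dermis, 0.46 for epidermis over lymph node and 0.26 for dermis over lymph node, against 0.07, 0.20 and 0.14 over all genes with that level.

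**Figure D2:**
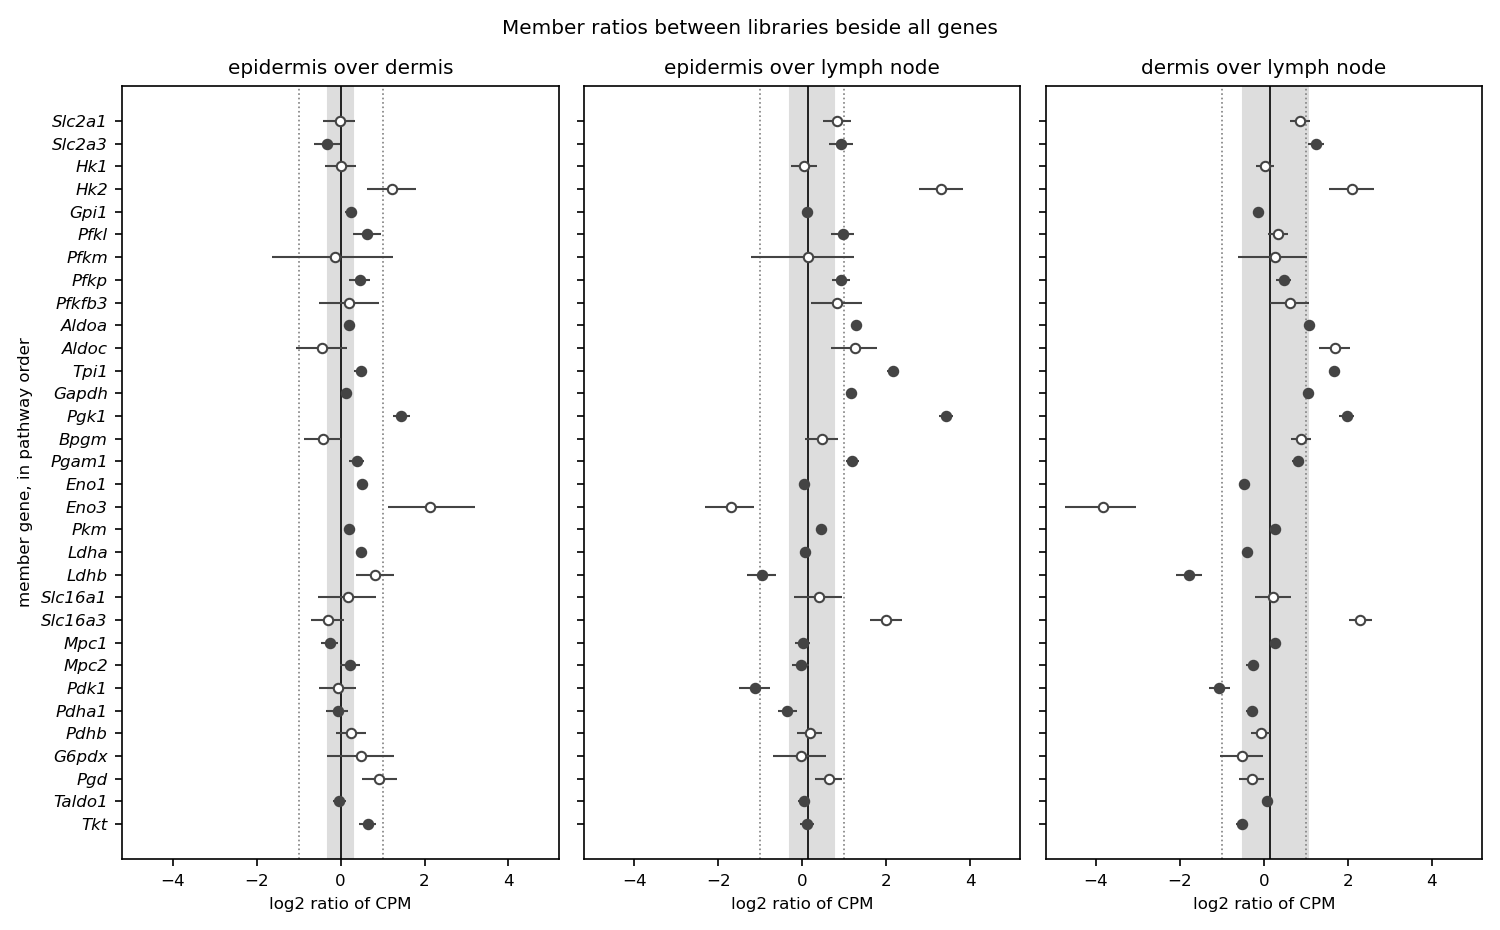
Log2 ratio of CPM for each member with at least 1 UMI in every library, one panel per comparison; filled points have at least 50 CPM in the higher library, bars are 95% counting intervals, the grey band spans the middle 50% of all genes with at least 50 CPM with their median as a line, and dotted lines mark 2-fold. Most members lie inside or near the band of all genes, and Pgk1 and Tpi1 stand to its right in both comparisons with lymph node.

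Pgk1 encodes phosphoglycerate kinase, the first ATP-yielding step of glycolysis (chromosome X, 106187100 to 106203699, mm10). It had 215 CPM in epidermis and 78.8 CPM in dermis, against 20.1 CPM in lymph node. Epidermis was 2.73-fold above dermis (95% interval 2.38 to 3.14) and 10.7-fold above lymph node (9.51 to 12.1), and dermis was 3.92-fold above lymph node (3.44 to 4.47). The 5 cells with most Pgk1 UMIs gave 25.5% of them in epidermis and 7.67% in dermis, against 2.57% in lymph node. Without the cells above the 95th percentile of depth, epidermis had 183 CPM and dermis 77.8 CPM, a ratio of 2.36. Without the 41 shared barcodes, epidermis had 171 CPM and dermis 81.0 CPM, a ratio of 2.11. Epidermal cells were mixed in Xist and Y-linked transcripts, and Pgk1 is X-linked. Among cells holding Xist but no Y-linked UMI, Pgk1 had 298 CPM in epidermis and 80.9 CPM in dermis, against 20.8 CPM in lymph node, and among cells with a Y-linked and no Xist UMI, it had 161 CPM in epidermis and 78.9 CPM in dermis. Epidermis was the higher in both subsets. The Y-linked subset held 101 epidermal and only 55 dermal cells, and its ratio of 2.04 was just past 2-fold.

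Tpi1 encodes triosephosphate isomerase, which links the products of aldolase (chromosome 6, 124810586 to 124814296). It had 265 CPM in epidermis and 191 CPM in dermis, against 59.6 CPM in lymph node. Epidermis was 4.45-fold (4.05 to 4.89) and dermis 3.20-fold (2.95 to 3.47) above lymph node, whereas epidermis was 1.39-fold above dermis (1.25 to 1.55). For Tpi1 the difference between the skin layers was not stable: without the 41 shared barcodes the epidermal level was 186 CPM and the dermal level 191 CPM. Without the shallower copies alone, Tpi1 had 265.5 CPM in epidermis and 188 CPM in dermis. Its ratio to lymph node stayed at or above 2-fold under each of the 20 alternative settings for epidermis and the 19 for dermis.

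Gapdh, glyceraldehyde-3-phosphate dehydrogenase (chromosome 6, 125161715 to 125166467), had 1497 CPM in epidermis and 1374 CPM in dermis, against 667 CPM in lymph node. The ratios to lymph node were 2.24 (2.16 to 2.33) for epidermis and 2.06 (2.002 to 2.12) for dermis, just past 2-fold. Aldoa, the main aldolase (chromosome 7, 126795234 to 126800751), had 761, 658 and 314 CPM in epidermis, dermis and lymph node, with ratios to lymph node of 2.43 (2.30 to 2.56) and 2.10 (2.02 to 2.19). Pgam1, phosphoglycerate mutase (chromosome 19, 41911923 to 41918660), had 179, 138 and 78.5 CPM, 2.28-fold (2.05 to 2.54) and 1.75-fold (1.60 to 1.91) above lymph node. These 3 genes sat near the 2-fold limit, and under TMM scaling, which lowered the median of all genes to -0.44 for epidermis and -0.35 for dermis over lymph node on the log2 scale, none of them was counted. Without the shared barcodes, Gapdh was 1.86-fold and Pgam1 1.81-fold above lymph node in epidermis, short of 2-fold, and Slc2a3 was counted instead. Without the shallower copies alone, Gapdh was 2.25-fold and Pgam1 2.29-fold above lymph node in epidermis.

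Gapdh, Pgk1 and Tpi1 are open to reads from processed pseudogenes, copies of a transcript in the genome. In GENCODE vM21, the last 300 bases, which 3′ libraries sample, aligned to 117 pseudogenes for Gapdh and 0 for Pgk1 or Tpi1, at 95% identity or more over 90 bases. A separate search with whole transcripts found 4 for Pgk1 and 1 for Tpi1. These genes were not alone: that search found pseudogenes for 11 of the 33 members, among them 4 for Ldha. The last 300 bases of Ldhb aligned to 1 pseudogene. Of these copies, Gm3839 had 0 UMIs in epidermis and 0 in dermis, against 2070 in lymph node, or 62.9 CPM there, and Pgk1-rs7 had 5, 6 and 10 UMIs. The complete lack of Gm3839 in both skin libraries, where 3 UMIs would be 1.36 and 0.648 CPM, runs along the difference in kit; the software version for lymph node is not stated either, and neither was tested as its origin. With Gm3839 added to Gapdh, lymph node had 730 CPM and the ratios were 2.05 (1.98 to 2.13) for epidermis and 1.88 (1.83 to 1.93) for dermis, so that dermis no longer reached 2-fold.

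The remaining abundant enzymes were close between tissues. Pkm, pyruvate kinase, had 677 CPM in epidermis and 591 CPM in dermis, against 494 CPM in lymph node, and Gpi1, which turns glucose 6-phosphate into fructose 6-phosphate, had 297, 249.5 and 274 CPM. Eno1, the main enolase, had 422 CPM in epidermis and 297 CPM in dermis, against 410 CPM in lymph node. Dermis was the lowest of the 3 for Gpi1 and Eno1, and epidermis was 1.08-fold above lymph node for Gpi1 and 1.03-fold for Eno1. The steps of glycolysis were not uniformly higher in skin: upper glycolysis (Gpi1, Aldoa, Aldoc and Tpi1) summed to 1339, 1119 and 654 CPM, while the genes of lactate handling summed to 687, 508 and 663 CPM.

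At the entry of glucose, the transporter genes Slc2a1 (GLUT1) and Slc2a3 (GLUT3; chromosome 6, 122727809 to 122801640) were both above lymph node in skin. Slc2a3 had 52.6 CPM in epidermis and 65.9 CPM in dermis, against 27.8 CPM in lymph node, and the dermal ratio of 2.37 (2.07 to 2.70) was counted. Slc2a1 had 39.5 and 40.2 CPM in epidermis and dermis, against 22.1 CPM in lymph node, a ratio of 1.78 (1.41 to 2.23) for epidermis and 1.82 (1.54 to 2.14) for dermis. The share of Slc2a3 among the UMIs of both genes was similar, at 57.1%, 62.1% and 55.7%.

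The hexokinases differed in kind more than in sum. Hk1, the housekeeping form, was level at 42.2, 41.9 and 41.0 CPM in epidermis, dermis and lymph node. Hk2, the form induced on activation (chromosome 6, 82725025 to 82774454), had 24.03, 10.4 and 2.43 CPM, below the level needed for a count. With all kept cells, its share of hexokinase UMIs was 36.3% in epidermis (Clopper-Pearson 95% interval 28.5 to 44.7) and 19.8% in dermis (15.002 to 25.4), against 5.60% in lymph node (4.47 to 6.92), and these intervals do not overlap. The epidermal share rests on 53 Hk2 UMIs, of which 41.5% came from 5 cells. Without the shared barcodes, Hk2 had 15.6 CPM in epidermis and 9.81 CPM in dermis, a ratio of 1.59 in place of 2.32. Without the shallower copies alone, that ratio was 2.31. Without the shared barcodes, Hk1 had 43.7 CPM in epidermis and 42.2 CPM in dermis. The epidermal share of Hk2 was then lower and closer to the dermal one, and intervals were not computed for these shares. Within-family shares such as this do not depend on how library totals are scaled.

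The phosphofructokinase genes had a similar mix of isozymes in the 3 libraries. Pfkp, the platelet form, had 93.4, 68.2 and 49.1 CPM in epidermis, dermis and lymph node, Pfkl, the liver form, had 59.0, 38.0 and 30.1 CPM, and Pfkm, the muscle form, had 3.17, 3.46 and 2.89 CPM. Pfkp made up 60.1%, 62.2% and 59.8% of the family. Epidermis was 1.90-fold (1.64 to 2.20) above lymph node for Pfkp and 1.96-fold (1.62 to 2.35) for Pfkl, both short of 2-fold. Pfkfb3, which makes the activator of phosphofructokinase, had 12.2, 10.6 and 6.87 CPM. Its relative Pfkfb2 had 1 UMI in epidermis and 0 in dermis, against 17 in lymph node, too few for a ratio.

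At the lactate end, Ldha had 606 CPM in epidermis and 435 CPM in dermis, against 578 CPM in lymph node. Ldhb, the form that favours turning lactate back into pyruvate (chromosome 6, 142490249 to 142507957), had 34.0 CPM in epidermis and 19.2 CPM in dermis, against 65.9 CPM in lymph node. It was 3.43-fold lower in dermis (2.77 to 4.29) and 1.94-fold lower in epidermis (1.54 to 2.47). The epidermal difference depended on how cells were weighted: as the mean of each cell's CPM, Ldhb had 74.1 CPM in epidermis and 66.8 CPM in lymph node. With UMIs pooled, Ldhb made up 5.31% of lactate dehydrogenase UMIs in epidermis (4.20 to 6.61) and 4.23% in dermis (3.41 to 5.18), against 10.2% in lymph node (9.82 to 10.6). The epidermal share depended on the weighting too. As the mean of each cell's CPM, epidermal Ldha had 464 CPM beside the 74.1 CPM of Ldhb, and Ldha held 89.1% of the pair in lymph node. Ldhb's share was then higher in epidermis than in lymph node. Slc16a3 (MCT4), a lactate exporter, had 33.6 CPM in epidermis and 41.5 CPM in dermis, against 8.42 CPM in lymph node. Slc16a1 (MCT1), which carries lactate in both directions, had 13.2, 11.7 and 10.0 CPM. Slc16a3 therefore held 71.8% of the transporter pair's UMIs in epidermis (62.1 to 80.3) and 78.0% in dermis (72.3 to 83.1), against 45.7% in lymph node (41.7 to 49.8).

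Eno3, the muscle enolase (chromosome 11, 70657202 to 70662513), had 12.2 CPM in epidermis and 2.81 CPM in dermis, against 40.0 CPM in lymph node. Its share of enolase UMIs was 2.82%, 0.938% and 8.88%. Among 6 skeletal muscle markers, the sums were 13.6, 13.0 and 10.6 CPM, led by Mylpf, with 4, 2 and 4 of the markers at 0 UMIs. In epidermis 55.6% of the 27 Eno3 UMIs came from 5 cells, in lymph node 4.48% of 1316. Aldoc, the second aldolase, made up 1.93%, 2.99% and 1.97% of aldolase UMIs, and Bpgm, which makes 2,3-bisphosphoglycerate, had 27.7, 37.1 and 20.1 CPM.

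**Figure D3:**
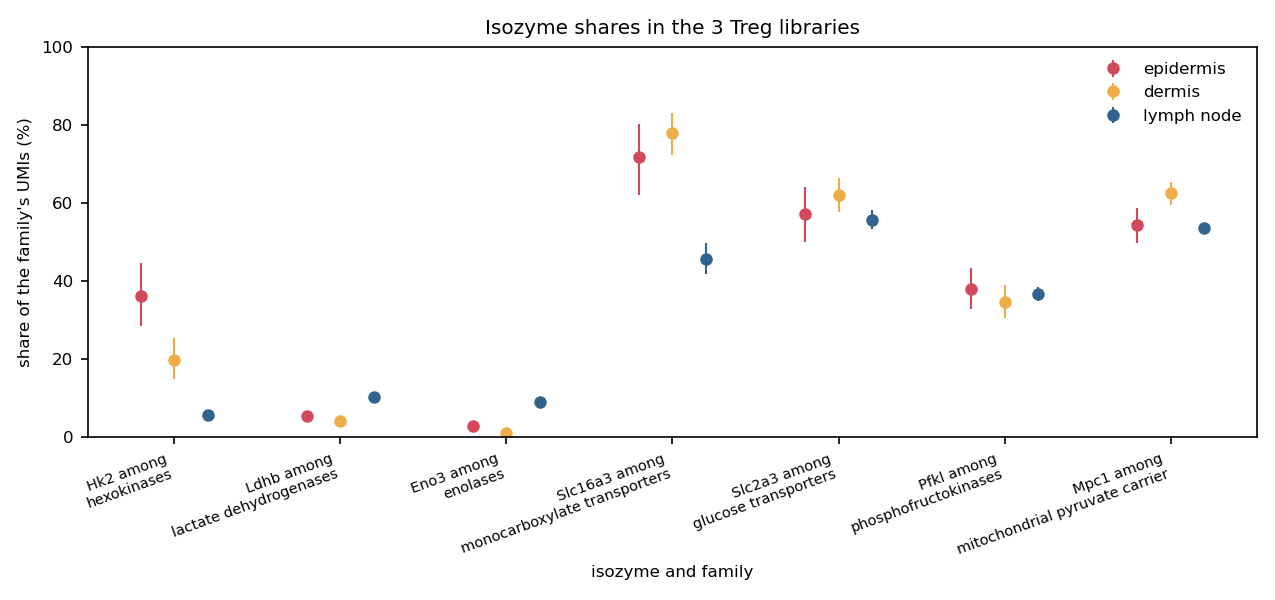
Share of 1 isozyme among the UMIs of its gene family, in percent, for 7 families; points are libraries (epidermis red, dermis yellow, lymph node blue) and bars are Clopper-Pearson 95% intervals. With UMIs pooled, Hk2 and Slc16a3 take larger shares and Ldhb and Eno3 smaller ones in both skin libraries than in lymph node, while Slc2a3 and Pfkl differ by less.

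At the entry of pyruvate into mitochondria, Pdk1, the kinase that inhibits pyruvate dehydrogenase (chromosome 2, 71873224 to 71903858), had 28.6 CPM in epidermis and 30.0 CPM in dermis, against 62.5 CPM in lymph node. It was 2.19-fold lower in epidermis (1.70 to 2.86) and 2.08-fold lower in dermis (1.75 to 2.49). The target subunits differed less: Pdha1 had 79.8, 84.0 and 102 CPM and Pdhb 46.3, 38.9 and 40.9 CPM in epidermis, dermis and lymph node. The pyruvate carrier genes Mpc1 (118, 141 and 117 CPM) and Mpc2 (99.3, 84.7 and 101 CPM) were nearly level, although Mpc1 took 62.6% of the pair in dermis (59.5 to 65.5), against 53.6% in lymph node (52.4 to 54.7).

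The pentose phosphate genes, which supply NADPH and ribose, showed no member past 2-fold. Taldo1, transaldolase, had 230, 235 and 224 CPM in epidermis, dermis and lymph node. Tkt, transketolase, had 145, 93.1 and 133 CPM, and Pgd 41.7, 22.0 and 26.9 CPM, with dermis the lowest in both. G6pdx, the entry enzyme, had 10.9, 7.78 and 11.2 CPM. The 4 genes summed to 428, 358 and 396 CPM.

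Within each library, cells were clustered without the member genes, so the members' levels are readouts of those clusters, described without a test. In epidermis the 55 cells of the resting Treg-like cluster, whose leading genes included Igfbp4, Bcl2 and Satb1, had the lowest level of the module, 2754 CPM. The 122 cells of both effector Treg-like clusters, led by Areg and Nr4a3 in one and Lag3 in the other, had 7043 and 8743 CPM, and the unnamed clusters had 5894 and 5665 CPM. The 25 cells of the cycling-like cluster, with a median of 997 UMIs and the airway gene Scgb1a1 leading histone and cycling genes, had 6995 CPM. Barcodes also kept in dermis made up 15 of the 56 cells of the effector-like cluster led by Lag3, 13 of the 25 cycling-like cells and 2 of the 55 resting-like cells. Without them the module had 6381 CPM in the cluster led by Lag3, 7069 CPM in the one led by Areg, 3905 CPM in the remaining 12 cycling-like cells and 2748 CPM in the resting-like cluster. Those 12 cells held few UMIs, and the lowest level of any member detected in them was 95.2 CPM. Most UMIs of the cycling-like cluster thus came from the shared barcodes. Median depth was 8002 UMIs in the resting-like cells, against 5378 and 8433 UMIs in the effector-like clusters. Ribosomal protein genes took a median of 39.1% of UMIs in resting-like cells, against 18.1% and 20.8%. Measured against UMIs outside mitochondrial and ribosomal protein genes, the contrast was smaller, at 4879 CPM in the resting-like cluster, against 9116 and 11769 CPM. Xist without Y-linked transcripts was seen in 20% of resting-like cells, against 62.1% and 46.4% in the effector-like clusters. Y-linked transcripts without Xist were seen in 43.6%, against 15.2% and 35.7%. With Xist alone, the module had 2624 CPM in resting-like cells, against 7909 and 9979 CPM. With Y-linked transcripts alone, it had 2617 CPM, against 4447 and 6303 CPM, a smaller contrast. The part of sex or animal in the contrast was not tested.

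Several single members followed the same pattern in epidermis, by up to 19.0-fold. Tpi1 had 24.96 CPM in the resting-like cluster and 474 CPM in the higher of the effector-like clusters, Pgk1 45.4 and 352 CPM, Pgam1 34.0 and 275 CPM, Aldoa 195 and 1231 CPM, Pkm 200 and 1051 CPM and Gapdh 529 and 2164 CPM. Without the shared barcodes the contrasts were smaller: Tpi1 had 25.9 CPM in the resting-like cluster, against 291 CPM in the effector-like cluster led by Areg and 240 CPM in that led by Lag3, and Pgk1 had 47.1 CPM, against 338 and 191 CPM. Hk2 had 0 UMIs in the resting-like cluster, and in the cluster led by Lag3 it had 38.2 CPM with and 3.29 CPM without the shared barcodes. Ldhb and Pdk1 were among the members that ran the other way, at 61.3 and 56.7 CPM in the resting-like cluster, against 20.1 and 24.1 CPM in that effector-like cluster. So did Eno3, at 31.8 against 6.03 CPM, and Mpc2, at 118 against 104 CPM. A high level of Ldhb was not confined to the resting-like cluster. The unnamed epidermal cluster of 38 cells had 58.4 CPM of Ldhb and 17.5 CPM of Pdk1. Other members differed little between epidermal clusters of at least 50 cells, such as Pdha1 (1.26-fold from lowest to highest) and Taldo1 (1.51-fold).

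**Figure D4:**
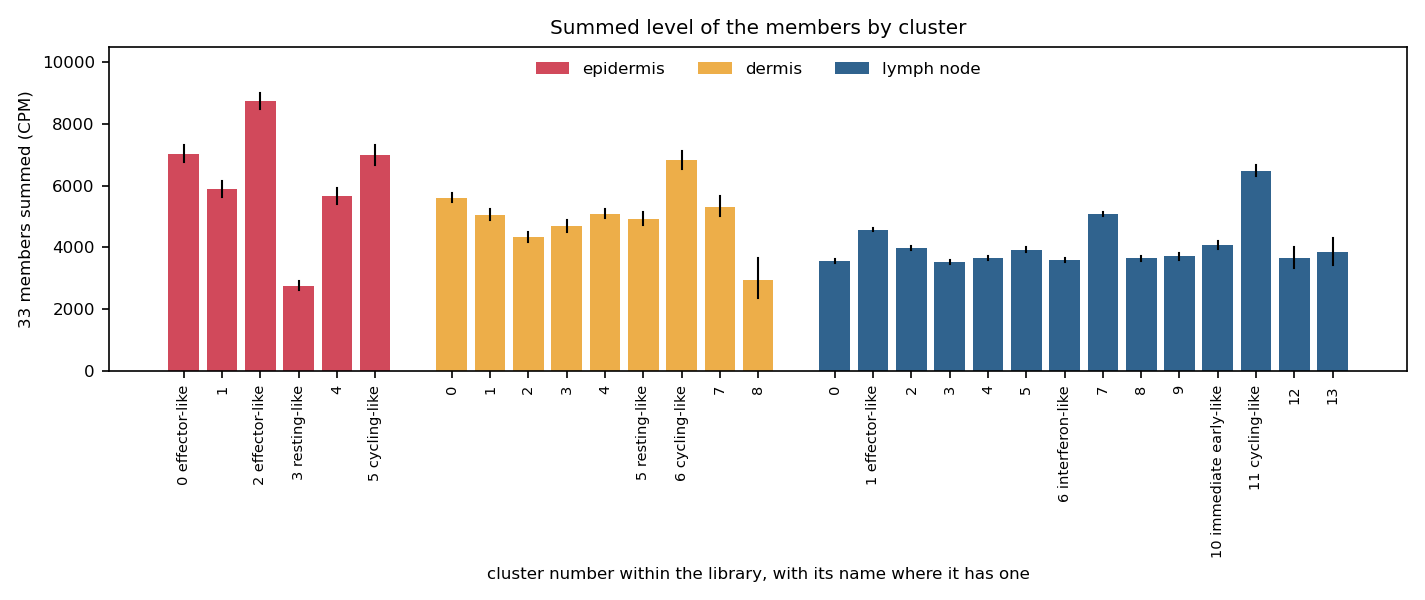
Summed CPM of the 33 members in each cluster of epidermis, dermis and lymph node, with 95% counting intervals as lines. The epidermal resting-like cluster stands at 2754 CPM, below every other epidermal cluster, and the cycling-like cluster is at 6822 CPM in dermis and at 6487 CPM in lymph node.

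The dermal resting Treg-like cluster of 76 cells did not show the low level. It had 4933 CPM for the module, within the dermal range, and 87.5 CPM of Pgk1, 108 CPM of Tpi1, 1259 CPM of Gapdh and 586 CPM of Aldoa. Effector Treg markers summed to 445 CPM in the epidermal and 4482 CPM in the dermal resting-like cluster, and immediate early genes to 2035 CPM in the epidermal and 8616 CPM in the dermal one, so the clusters of one name differ beyond the module. Between these clusters, 7 members were at least 2-fold lower in epidermis (Pfkp, Aldoa, Tpi1, Gapdh, Pgam1, Pkm and Bpgm) and 1 was higher (Ldhb), where 20.7% and 6.38% of all genes were. Ribosomal protein genes took a median of 39.1% of UMIs in the epidermal and 21.4% in the dermal resting-like cells. Measured against UMIs outside mitochondrial and ribosomal protein genes, the module had 4879 CPM in the epidermal and 6751 CPM in the dermal cluster, a smaller contrast. The members were not counted on that scale. Pgk1, the member that was higher in epidermis as a whole, had 45.4 CPM in epidermal and 87.5 CPM in dermal resting-like cells, so the direction of that result was the opposite there. The hexokinase shares also had the opposite order there. Hk1 held 100% of the pair's UMIs in epidermal and 55.6% in dermal resting-like cells. The dermal clusters with at least 50 cells otherwise spanned a narrower range, from 4341 to 6822 CPM.

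**Figure D5:**
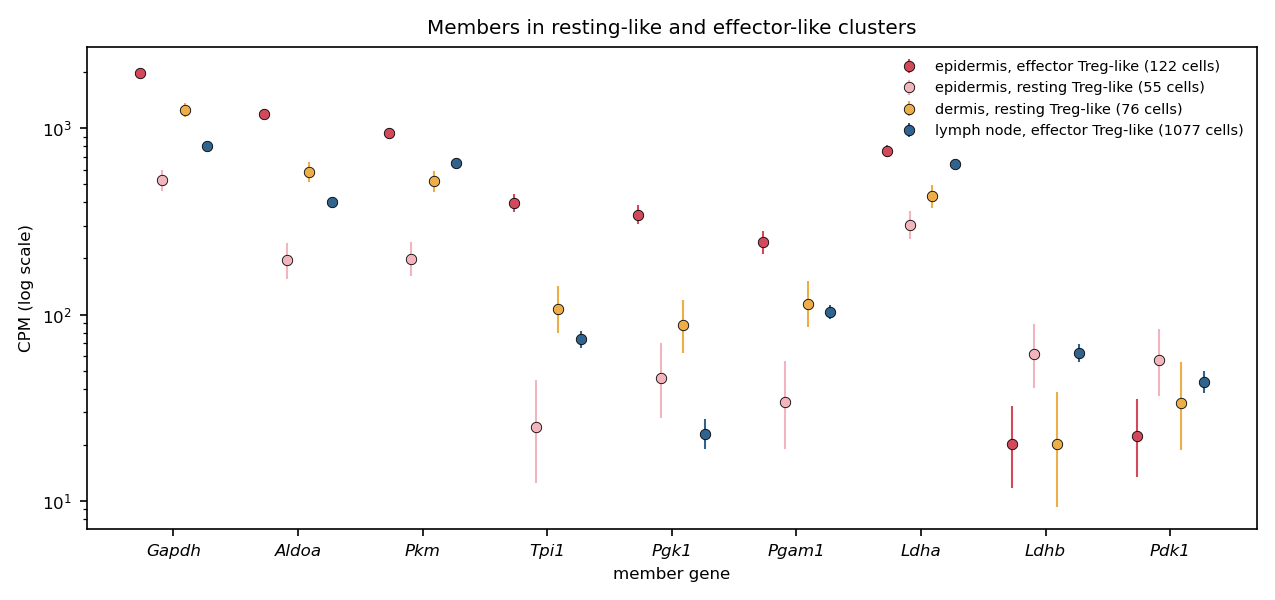
CPM of 9 members on a log axis in the effector-like and resting-like clusters of epidermis, the resting-like cluster of dermis and the effector-like cluster of lymph node; bars are 95% counting intervals. Gapdh, Aldoa, Pkm, Tpi1, Pgk1 and Pgam1 are highest in the epidermal effector-like cells, and Ldhb and Pdk1 are higher in the epidermal resting-like than in the effector-like cells.

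In lymph node the module was highest in the cycling-like cluster of 91 cells, at 6487 CPM, followed by 5081 CPM in an unnamed cluster of 757 cells led by Lad1, Nkg7 and Shmt1 and by 4574 CPM in the effector Treg-like cluster of 1077 cells. The other clusters lay between 3535 and 4087 CPM. Ribosomal protein genes took a median of 26.1% of UMIs in the effector-like cluster, against 32.5% to 40.8% in those other clusters. Measured against UMIs outside mitochondrial and ribosomal protein genes, the cycling-like cluster had 9254 CPM and the one led by Lad1 8303 CPM. The effector-like cluster then had 6576 CPM, nearly level with the other clusters at 6072 to 6551 CPM. Tpi1 had 191 CPM in the cycling-like cluster, 128 CPM in the unnamed cluster led by Lad1 and 28.6 CPM in its lowest cluster. Gapdh had 1632 CPM in the cycling-like cells and 508 CPM in its lowest cluster of at least 50 cells, whereas Pdk1 had 29.7 CPM in the cycling-like cells and 92.9 CPM in its highest cluster. Eno3 was unevenly spread, with 128 CPM in the cluster led by Lad1 and 10.4 CPM in its lowest cluster of that size. In the effector-like cluster Slc16a1 held 23.4% of the transporter pair's UMIs, against 54.3% in the whole library and 28.2% and 22.0% in epidermis and dermis. Cycling-like cells had 6822 CPM in dermis too, where 24 of the 58 cells were shallower copies of shared barcodes.

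Between effector Treg-like cells alone, 9 of 19 members were higher in the epidermal ones, against 16.9% of all genes, and 1 was lower (Ldhb), against 6.08%. Of the 122 epidermal cells, 18 carried shared barcodes, and the count was not run without them. Without them, Pgam1 had 202 CPM in the cluster led by Areg and 198 CPM in that led by Lag3. This was short of 2-fold over the 104 CPM of lymph node effector-like cells. Pfkp then had 133 and 72.5 CPM, against 58.7 CPM. Pgk1, at 338 and 191 CPM, and Tpi1, at 291 and 240 CPM, stayed past 2-fold. With all 122 cells, Pgk1 had 344 CPM in epidermal and 22.9 CPM in lymph node effector-like cells, Tpi1 399 and 73.7 CPM and Gapdh 1988 and 800 CPM. No dermal cluster took that name, which needs markers raised over the other cells of the same library. Effector Treg markers summed to 5227 CPM in the whole dermal library. They summed to 6934 and 4811 CPM in the epidermal effector-like clusters and to 2308 CPM in the lymph node one. Clusters of this name thus differ in level between libraries, and its absence in dermis does not mean that such cells were lacking.

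Genes around the module were counted from lists of the pathway's neighbours. Of the 9 other targets of hypoxia-inducible factor with at least 50 CPM in dermis or lymph node, 6 were at least 2-fold higher in dermis (Egln1, Egln3, Ero1l, P4ha1, Ndrg1 and Mxi1), against 26% of all genes. For epidermis over lymph node 3 of 6 were higher (Egln1, Ero1l and P4ha1), against 18.6%, and between the skin layers 0 of 9 differed by 2-fold. Egln1, an oxygen sensor that marks Hif1a for degradation, had 85.7 CPM in epidermis and 61.6 CPM in dermis, against 7.14 CPM in lymph node. Ero1l, which oxidises proteins in the endoplasmic reticulum, had 84.3 and 110 CPM, against 12.2 CPM. The median log2 ratio to lymph node of this list was 1.28 in epidermis and 1.54 in dermis, higher than that of the members, at 0.46 and 0.26.

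Among upstream regulators, Hif1a had 229 CPM in epidermis and 373 CPM in dermis, against 65.3 CPM in lymph node. Irf4, a transcription factor of activated T cells, had 67.6 and 105 CPM, against 15.7 CPM, and Akt1, a kinase of the insulin and growth factor pathway, had 56.2 and 47.1 CPM, against 13.6 CPM. Counted over the list, 3 of 6 were higher in epidermis, against 18.6% of all genes, and 2 of 5 in dermis, against 26%. In dermis 1 was lower, against 9.55%. That gene was Myc, which had 27.7 and 16.0 CPM in epidermis and dermis, against 52.3 CPM in lymph node. Hif1a and Myc, both known to act on glycolytic genes, differed in opposite directions.

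Most genes of the citrate cycle did not differ by 2-fold. Of the citrate cycle genes, 1 of 10 was higher in epidermis over lymph node and 0 were lower, against 18.6% and 3.42% of all genes. In dermis 1 of 9 was higher and 1 lower, against 26% and 9.55%. The median log2 ratio of the list was -0.31 in epidermis and -0.51 in dermis. Ogdh, a subunit of the 2-oxoglutarate dehydrogenase, was the gene higher in both, at 70.7 and 80.1 CPM, against 32.8 CPM, and Suclg1, a subunit of succinyl-CoA ligase, was the lower one in dermis, at 50.8 CPM, against 104 CPM in lymph node. In the side branches Got1, a transaminase that links glycolysis to aspartate, had 65.3 CPM in epidermis and 174 CPM in dermis, against 27.2 CPM in lymph node, and it was 2.66-fold lower in epidermis than in dermis. No gene of the lists for other pentose phosphate enzymes, gluconeogenesis and glycogen, or the rest of the pyruvate dehydrogenase complex was counted, and none of 19 further isozymes reached 50 CPM.

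Markers of other cell types were present in each library. Keratinocyte markers summed to 55.3, 162 and 24.2 CPM in epidermis, dermis and lymph node, with 2, 1 and 4 of 9 markers at 0 UMIs. Macrophage and dendritic cell markers summed to 402, 375 and 212 CPM, led by Cd74, with 2, 5 and 3 of 10 at 0. Genes that mark CD8 T or NK cells reached 199, 101 and 74.7 CPM in sum, led by Nkg7, with 2, 3 and 1 of 6 at 0. Erythroid markers, whose cells hold much Bpgm, summed to 0, 0.432 and 0.365 CPM. Cycling markers summed to 689 CPM in epidermis and 166 CPM in dermis, against 143 CPM in lymph node, and without the cycling-like clusters Pgk1 remained the 1 member counted between the skin layers. The part of these transcripts in the results was not tested.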

How the data were processed

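Single-cell 3′ RNA libraries of sorted Tregs were analysed from the UMI counts per gene and cell that the authors deposited, 1 matrix per tissue. Per the submitters' processing notes the reads were processed with Cell Ranger and mm10; per the file headers Cell Ranger 4.0.0 was used for both skin libraries, while for lymph node no version is stated in those sources. The members and all gene lists were chosen with earlier results of these data known, and the text names every member plus the genes of the lists that passed the thresholds.

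Counts were summed per library and divided by library totals to give CPM. Ratios carry exact 95% intervals from the binomial split of the counts, shares Clopper-Pearson intervals, and a count of 0 is read against 3 counts; all cover counting error only. With 1 library per tissue no p-value was computed. A member was counted at 2-fold with 50 CPM in the higher library, and medians used 10 CPM. Cells were clustered within each library without the members (1500 variable genes, 20 components, 15 neighbours, Leiden resolution 1; scanpy 1.11.5). A cluster was named X-like with 3 markers raised 1.5-fold at 20 CPM and 1 among its 10 leading genes. After the clusters were seen, those with more than 1 marker of another cell type or more than 1 lung epithelial gene among the 10 leading genes were left unnamed. The epidermal cycling-like cluster, with Scgb1a1 as its only such gene, kept its name. Scrublet marked 18, 8 and 6 cells as doublets in epidermis, dermis and lymph node (0.0638% in lymph node, too few to have worked), and they were left in. The procedure was tested on simulated counts. TMM used edgeR 4.0.16, only for scaling. Sequence copies were found with blastn 2.17.0.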

Additional observations from a re-analysis of the deposited data

How the results depend on the processing

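No paired analysis was possible because each tissue had 1 library. Pgk1 and Tpi1 stayed more than 2-fold above lymph node in every setting run for both skin libraries. Under median-of-ratios scaling, which leaves fewer genes at 50 CPM, Pgk1 (39.7 CPM in dermis, 12.1 CPM in lymph node, log2 ratio 1.71) and Ldhb (9.69 CPM in dermis, 39.8 CPM in lymph node, log2 ratio -2.04) were not counted because both libraries were under 50 CPM, not because the ratio was smaller than 2-fold. Shares in parentheses are those of all genes counted under the same setting. Of members higher in epidermis than dermis, 2 of 21 were counted with the mean of each cell's CPM (3.84%), 2 of 22 with totals without mitochondrial and ribosomal protein genes (4.13%), 2 of 17 in cells with a Y-linked and no Xist UMI (6.77%), 2 of 27 with 20 CPM (3.74%), 3 of 32 with no minimum (10%) and 3 of 17 at 1.5-fold (8.94%). In resting Treg-like clusters 7 of 19 were lower (20.7%), and the log2 ratio of Pgk1 was -0.95. Of members higher in epidermis than lymph node, 2 of 18 were counted with TMM (8.73%), 2 of 14 with median-of-ratios (9.84%), 3 of 24 with totals without mitochondrial and ribosomal protein genes (13.8%), 8 of 20 in cells with Xist (22.4%), 8 of 33 with no minimum (31.6%), 8 of 19 at 1.5-fold (30.8%), 8 of 19 without resting-like clusters (21.6%) and 9 of 19 in effector-like clusters (16.9%). Of members lower there, 0 of 21 were counted with the mean of each cell's CPM (4.73%), 0 of 14 with median-of-ratios (11.6%) and 3 of 24 with totals without mitochondrial and ribosomal protein genes (6.17%). In 11 settings 2 were lower (3.11% to 14.4%): the T cell gate, 1000 UMIs, the 5% mitochondrial limit, thinning to 1500 UMIs, TMM, ratios relative to the median gene, Xist cells, 20 CPM, no minimum, 1.5-fold and without resting-like clusters. For dermis over lymph node, the members higher numbered 1 of 13 with median-of-ratios (19.6%), 2 of 18 with TMM (15.7%), 3 of 23 with totals without mitochondrial and ribosomal protein genes (17.1%), 3 of 18 relative to the median gene (22.7%), 3 of 18 in cells with Foxp3 (24.7%) and 8 of 33 with no minimum (31.8%). Those lower numbered 0 of 13 with median-of-ratios (19.1%), 1 of 19 with the mean of each cell's CPM (9.73%) and 1 of 20 with thinning (10.8%), where Pdk1 had log2 ratios of -0.96 and -0.98. TMM moved the members' median log2 ratio over lymph node to -0.02 in epidermis and -0.15 in dermis. The causes of the other shifts were not tested. Effector-like clusters were not run with dermis, and resting-like clusters and Y-linked cells were not run with lymph node.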
